A study of Mus musculus with 24 samples.

Results

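Interleukin-6 (Il6), 3 further cytokines of its family (Lif, Il11, Clcf1) and 6 other factors that skeletal muscle is known to secrete (Il15, Fgf21, Gdf15, Mstn, Fndc5, Metrnl) were followed at the RNA level in mouse myotubes. The 10 genes were taken by name from the GRCm38 annotation, out of 55487 genes listed. A low-value filter, which asked for 6 or more libraries with a normalized count of 10 or more, was passed by 9 of the 10. Mstn did not pass and is described apart from the rest.

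The RNA came from wild-type C2C12 myotubes, a clonal mouse muscle line whose myoblasts fuse in culture, labelled as day 5 of differentiation. All cultures were differentiated under 5 % O2 and were then held for 2 h under 5 % or 1 % O2 in the gas phase. They were either left unstimulated (5 % CTRL, 1 % CTRL) or given repeated bouts of high-frequency electrical stimulation (5 % STIM, 1 % STIM), with the medium replaced before and after stimulation. The study's methods set the 2 h before stimulation, and its legends place the RNA of stimulated cultures directly after it. Stimulated cultures may thus have spent longer under the set O2 than unstimulated ones. Each of the 4 groups held 6 libraries, which the study's methods call biological replicates, so O2 level and stimulation were crossed over 24 libraries. Every group is the same line under the same differentiation O2, so no group represents room air, another clone or muscle tissue with its vessels and immune cells.

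Myokines are proteins that muscle releases and that act on muscle itself or on distant organs. The IL-6 family signals through receptor complexes that share the gp130 chain (Il6st), which activates JAK kinases and the transcription factor STAT3, and IL-6 is the best known cytokine released by working muscle. FGF21 and GDF15 are hormones of metabolic and cellular stress, myostatin is the brake on muscle growth, and FNDC5 is the membrane protein from which irisin is cleaved.

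The upstream windows of Il6, Lif and Fgf21 are shown because these genes had, in turn, the largest changes, the only called interaction and the highest level per length among the 10. Each line gives the 250 bases before the RefSeq start site on the gene's own strand, from 5′ to 3′, in build GRCm38.p6, with motif matches in capitals. The windows are chr5:30012864-30013113 on the plus strand for Il6, chr11:4257318-4257567 on the plus strand for Lif and chr7:45615491-45615740 on the minus strand for Fgf21.
Il6: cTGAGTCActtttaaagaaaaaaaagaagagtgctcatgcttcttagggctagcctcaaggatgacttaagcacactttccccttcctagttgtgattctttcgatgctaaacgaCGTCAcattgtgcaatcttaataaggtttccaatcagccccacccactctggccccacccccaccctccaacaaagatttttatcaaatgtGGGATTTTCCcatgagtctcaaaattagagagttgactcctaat
Lif: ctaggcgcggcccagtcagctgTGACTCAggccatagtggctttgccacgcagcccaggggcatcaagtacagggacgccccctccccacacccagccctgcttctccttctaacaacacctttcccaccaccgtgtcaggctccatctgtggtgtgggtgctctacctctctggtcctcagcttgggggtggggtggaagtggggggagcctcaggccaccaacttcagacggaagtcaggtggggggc
Fgf21: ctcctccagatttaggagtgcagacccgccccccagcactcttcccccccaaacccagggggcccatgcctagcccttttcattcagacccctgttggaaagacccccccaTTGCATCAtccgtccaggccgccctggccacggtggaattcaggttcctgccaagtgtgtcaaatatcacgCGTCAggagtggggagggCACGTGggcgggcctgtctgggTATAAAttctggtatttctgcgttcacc

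Letters were searched on both strands and compared with the same 250-base windows of 32851 promoters. The Il6 window held an NF-kB match (GGGA, any base, then TTTCC, in 0.356 % of windows) 44 to 35 bases before the start site, an AP-1 match (TGANTCA, in 6.75 %) 249 to 243 bases before it, and a CRE half-site (TGACG, in 17.8 %), read here as CGTCA, 135 to 131 bases before it. The Lif window held a single AP-1 match, 228 to 222 bases before the start. The Fgf21 window held the C/EBP-ATF composite (TGATGNAA, in 3.45 %), read as TTGCATCA, at 139 to 132 bases, a CRE half-site at 68 to 64 bases, a HIF core (ACGTG, in 16.6 %) on each strand within 50 to 45 bases, and TATAAA (in 12.4 %) at 28 to 23 bases before the start. The full CRE (TGACGTCA, in 1.55 %), which contains the half-site on both strands, was in none of the 3 windows. RefSeq windows were held for 8 of the 10 genes and not for Clcf1 or Il15. These matches are letters in a window, and no binding was measured.

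Libraries held 26541858 to 28173745 reads, so a normalized count of 10 rests on about 10 reads. The library of 1 % CTRL replicate 1 stood apart, with a median deviation from its group mean of 0.119 on the log2 scale against 0.0499 to 0.0765 in the other libraries. Without it, the calls of the 9 genes tested were as with it except for Il11 and Il15, whose values without it are given beside them. Myotube markers were high in all groups, with sums of 10 genes of 546240 to 597780 normalized counts in 5 % CTRL, 503290 to 541540 in 1 % CTRL, 486140 to 559720 in 5 % STIM and 487840 to 544320 in 1 % STIM. Of these 10, 6 were lower and 1 higher in each O2 comparison, and 4 and 2 were lower with stimulation under 5 % and 1 % O2. The summed macrophage markers reached only 119 to 165 and the summed endothelial markers 32.4 to 72.5. The sum of 7 myoblast markers was 7739 to 8401 in 5 % CTRL, 6109 to 6431 in 1 % CTRL, 6587 to 7478 in 5 % STIM and 4907 to 5313 in 1 % STIM, and its genes went both ways, with 3 higher (Pax7, Myf5, Cdk1) and 2 lower (Myod1, Notch1) in 1 % CTRL. The fibroblast list, with Tcf21 at 0 and Thy1 and Lum at group means of at most 3.23, was carried by collagens that myoblast cultures also make (Col1a1, Col3a1), and its sums were 202920 to 237170, 165470 to 178390, 194060 to 216940 and 167540 to 179220 in the same order. The remaining gene of this list, Pdgfra, was expressed, at means of 193, 138, 220 and 200 in that order. The part of these shifts in the results below was not tested, and in bulk RNA fewer cells of a kind and less RNA per cell cannot be told apart.

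Under 1 % O2 most of the myokine transcripts were lower, whereas stimulation raised a few of them by large factors. In unstimulated myotubes 1 of the 9 genes tested was higher (Lif) and 6 were lower in 1 % CTRL than in 5 % CTRL, where 29.4 % and 30.5 % of all genes tested were called higher and lower and 59.9 % were called in either direction. After stimulation none was higher and 7 were lower in 1 % STIM than in 5 % STIM, against 29.0 % and 28.4 % of all genes and 57.4 % in either direction. The 6 genes lower in both comparisons, which share no libraries, were Il6, Clcf1, Fgf21, Gdf15, Fndc5 and Metrnl, where 23.1 % of all genes were lower in both. A call is an adjusted p under 0.05 in a limma fit of log2(normalized count + 1) over all 14541 genes tested, and fold changes below are on that scale.

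Stimulation under 5 % O2 raised 4 genes (Il6, Lif, Il15, Gdf15) and lowered 1 (Metrnl), where 9.44 % of all genes were higher, 12 % were lower and 21.4 % were called in all. Under 1 % O2 it raised 2 (Il6, Gdf15) and lowered 2 (Lif, Metrnl), where 11.5 % were higher, 10.8 % lower and 22.3 % called in all. The groups did not overlap for 5 genes in the former comparison, against 11.1 % of all genes, and for 3 in the latter, against 11.2 %. In the O2 comparisons they did not overlap for 5 genes without stimulation, against 38.2 % of all genes, and for 6 with stimulation, against 37.3 %. The O2 comparison and the stimulation comparison of any one group share that group's libraries, so their calls are not independent.

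Scaling moved the split of calls over all genes. With libraries rescaled to the same total, the share of calls that were higher went from 49.05 % to 62.77 % for 1 % CTRL against 5 % CTRL, from 50.44 % to 63.25 % for 1 % STIM against 5 % STIM, from 44.04 % to 62.18 % for 5 % STIM against 5 % CTRL and from 51.4 % to 62.34 % for 1 % STIM against 1 % CTRL. The median over all genes moved by at most 0.080 on the log2 scale, and no called change of the 9 genes turned its direction or lost its call under that scaling. The median log2 fold change of the 9 genes was −0.41 and −0.59 for 1 % O2 without and with stimulation, and 0.10 and −0.04 for stimulation under 5 % and 1 % O2, with the median of all genes between −0.01 and 0.00 in each.

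**Figure D1:**
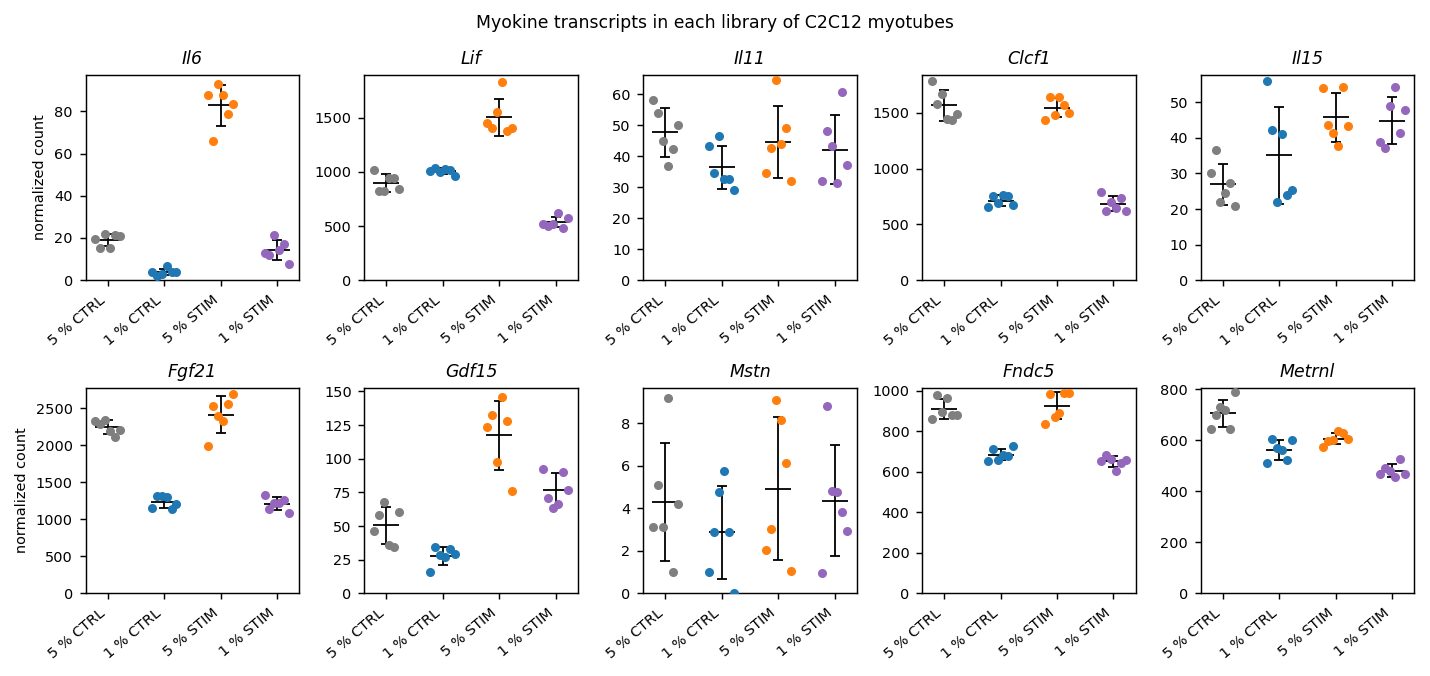
Normalized count of each of the 10 transcripts (y axis, linear from 0, separate scale for each gene) in every library of the 4 groups, with points for libraries, the long bar for the mean and whiskers for the SD (n = 6). The 6 libraries of 5 % STIM lie above all others for Il6, Lif is lowest in 1 % STIM, and Mstn stays under 10 in every library.

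Il6 (ENSMUSG00000025746, chr5:30013114-30019981, plus strand), a protein-coding gene for the cytokine that gives the family its name, changed most. Its normalized count was 15.3, 20.3 and 22 (lowest, median, highest of 6) in 5 % CTRL and 1.92, 3.86 and 6.71 in 1 % CTRL. It was 65.9, 85.7 and 92.9 in 5 % STIM and 7.80, 13.5 and 21.2 in 1 % STIM. The groups did not overlap in any of the 4 comparisons, and 5 % STIM stood above every other library.

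Low O2 took the mean Il6 level from 19.1 ± 3.01 (SD, n = 6) to 3.86 ± 1.61 in unstimulated myotubes, which is −2.09 on the log2 scale (SE 0.22, limma adjusted p = 3.37e-10). Stimulation under 5 % O2 took it to 82.8 ± 9.55, a change of 2.07 or 4.19-fold (SE 0.22, limma adjusted p = 4.02e-09). In stimulated myotubes the mean was 14.2 ± 4.64 under 1 % O2, which was −2.52 against 5 % STIM (SE 0.22, limma adjusted p = 5.63e-12) and 1.65 against 1 % CTRL (SE 0.22, limma adjusted p = 3.39e-07). Il6 was thus a low transcript throughout, and 1 % CTRL rested on 2 to 7 reads per library. With a pseudocount of 10 the log2 fold change was −1.07 for 1 % CTRL against 5 % CTRL and 0.79 for 1 % STIM against 1 % CTRL, both still called, and over the alternatives these lay between −2.30 and −1.07 and between 0.79 and 1.88.

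The difference between both stimulation responses of Il6 depends on the scale. In normalized counts the rise was 63.7 (SE 4.09) under 5 % O2 and 10.3 (SE 2.01) under 1 % O2. On the log2 scale the interaction, the response under 1 % O2 minus that under 5 % O2, was −0.42 (95 % interval −1.05 to 0.20, limma adjusted p = 0.421) and was not called. With a pseudocount of 10 in place of 1 it was −0.89 (limma adjusted p = 0.000724), and over the alternatives it lay between −0.89 and −0.27 with adjusted p between 0.000724 and 0.732.

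Lif (ENSMUSG00000034394, chr11:4257557-4272514, plus strand) encodes leukaemia inhibitory factor, which acts on satellite cells and myoblasts through LIFR and gp130. The normalized count of Lif was 824, 890.2 and 1022 (lowest, median, highest) in 5 % CTRL and 962, 1015 and 1036 in 1 % CTRL. It was 1377, 1428 and 1833 in 5 % STIM and 486, 519.6 and 617 in 1 % STIM. All 6 libraries of 5 % STIM were above, and all 6 of 1 % STIM below, every unstimulated library.

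Stimulation therefore went with opposite changes of Lif at the O2 levels. Under 5 % O2 the mean rose from 899 ± 81.9 to 1505 ± 173 (SD, n = 6), a log2 fold change of 0.74 (SE 0.06, limma adjusted p = 3.05e-10). In 1 % O2 it fell from 1008 ± 26.3 to 536 ± 49.1, a change of −0.91 (SE 0.06, limma adjusted p = 2.32e-12). The interaction was −1.65 (95 % interval −1.84 to −1.47, limma adjusted p = 8.79e-14). Lif was the only one of the 9 genes called in this test, in which 11.3 % of all genes were called, 5.88 % higher and 5.43 % lower.

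Between stimulated groups Lif was lower by −1.49 (SE 0.06, limma adjusted p = 5.05e-18) under 1 % O2. Without stimulation the difference was small and had the other sign, at 0.17 (SE 0.06, limma adjusted p = 0.0244), and the groups overlapped, with 2 of the 6 libraries of 1 % CTRL above all of 5 % CTRL. That call was lost without 5 % CTRL replicate 2, 3 or 6, with values of 0.14, 0.15 and 0.15 and limma adjusted p of 0.0640, 0.0638 and 0.0581.

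Clcf1 (ENSMUSG00000040663, chr19:4214238-4223490, plus strand), which encodes a cytokine that acts through the CNTF receptor complex, fell under 1 % O2 and was not called with stimulation. The lowest, median and highest normalized counts were 1432, 1533 and 1784 in 5 % CTRL and 651, 721 and 763 in 1 % CTRL. They were 1437, 1537 and 1638 in 5 % STIM and 616, 674 and 794 in 1 % STIM. Both 5 % groups lay wholly above both 1 % groups.

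For Clcf1 the log2 fold change with 1 % O2 was −1.13 (SE 0.06, limma adjusted p = 2.57e-16) without and −1.18 (SE 0.06, limma adjusted p = 1.33e-16) with stimulation. With stimulation it was −0.02 (95 % interval −0.14 to 0.11) under 5 % O2 and −0.06 (−0.18 to 0.06) under 1 % O2. Part of this gene's exons, 8.17 % of their bases, overlaps the protein-coding AC109138.7 on the same strand, and 6.05 % of its 75-base words occur in that gene, so the split of those reads is uncertain.

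Il11 (ENSMUSG00000004371, chr7:4772373-4782859, minus strand), a gp130 cytokine known from fibrotic and stromal cells, was called in no comparison. Its normalized counts ranged from 36.8 to 58.0 in 5 % CTRL, 29.1 to 46.6 in 1 % CTRL, 32.0 to 64.6 in 5 % STIM and 31.4 to 60.7 in 1 % STIM, so the groups overlapped throughout. The difference of 1 % CTRL from 5 % CTRL was −0.38 (95 % interval −0.73 to −0.04, limma adjusted p = 0.0517), just beyond the threshold. It passed at −0.31 (limma adjusted p = 0.0490) with a pseudocount of 10 and, at −0.43 (limma adjusted p = 0.0319), without the library of 1 % CTRL replicate 1.

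Of the 8 other ligands listed for the family, 3 passed the filter. Ctf1, which encodes cardiotrophin-1, rose by 0.70 (limma adjusted p = 0.000112) in 1 % CTRL, from a mean of 30.6 to 50.7, with overlapping groups. In 1 % STIM against 5 % STIM its difference of 0.23 was not called (limma adjusted p = 0.176). Cntf, which encodes ciliary neurotrophic factor, was called in no comparison. Osm, Ebi3 and Il31 were listed at 0 in all libraries.

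Of the 7 receptor chains tested, 1 was higher and 3 were lower under 1 % O2 without stimulation and 3 were lower with it, no larger a share than the 59.9 % and 57.4 % of all genes called. The list median was −0.31 and −0.21. Osmr, the oncostatin M receptor, fell by 0.68 (limma adjusted p = 2.35e-13) without stimulation and by 0.75 (limma adjusted p = 2.75e-14) with it. The shared chain Il6st went from a mean of 9985 in 5 % CTRL to 7797 in 1 % CTRL, a change of −0.36, and Lifr changed by −0.31. Il6ra, the chain specific to IL-6, was 0.20 higher in 1 % CTRL (limma adjusted p = 0.00584). With stimulation only Osmr was called under 5 % O2, at 0.16, and Il6st (0.16) and Lifr (0.12) under 1 % O2. Of all genes, 21.4 % and 22.3 % were called in these stimulation comparisons.

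Among the 8 kinases, STATs and phosphatases of the JAK-STAT list, 2 were higher and 4 lower in each O2 comparison, by at most 0.23 in size. Of all genes, 59.9 % were called without and 57.4 % with stimulation. Stat3, the main transcription factor below gp130, was −0.23 in 1 % CTRL and −0.11 in 1 % STIM, and Jak2 was −0.18 and −0.19. Stimulation raised Jak2 by 0.19 under 5 % and by 0.18 under 1 % O2.

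Of the known STAT3 targets and feedback inhibitors, 10 were tested. In 1 % CTRL against 5 % CTRL, 3 were higher and 4 lower (median −0.24), where 59.9 % of all genes were called in either direction. With stimulation under 5 % O2, 7 were higher and 1 was lower, where 9.44 % and 12 % of all genes were. The list median was 0.47 against −0.01 over all genes. Cebpb, at means of 7.93, 6.58, 27.4 and 11.6 in 5 % CTRL, 1 % CTRL, 5 % STIM and 1 % STIM, met the filter in every 5 % STIM library. It was thus tested through the group where it is high, so no test of it is given, though it stays in the counts of this list. Pim1, a survival kinase, rose by 1.83 from a mean of 109 to 389, and Bcl3, a nuclear regulator of NF-kB, by 1.53 from 38.4 to 113. Socs3, the feedback inhibitor that binds gp130, was the one that fell, by 0.25. Under 1 % O2, 3 were higher and 1 was lower with stimulation, where 11.5 % and 10.8 % of all genes were, with Pim1 at 2.51 and Socs3 at −0.84.

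In 1 % STIM against 5 % STIM, 7 of these 10 genes were lower and 2 higher, with a median of −0.71. Of all genes, 57.4 % were called in either direction there. The interaction was called for 5 of the 10, lower for Bcl3 (−1.55), Junb (−1.08), Socs3 (−0.60) and Cebpd (−1.47, at means under 50) and higher for Pim1 (0.68). Over all genes, 5.43 % were called lower and 5.88 % higher in the interaction. Socs3 went from means of 703 in 5 % CTRL and 579 in 1 % CTRL to 591 in 5 % STIM and 322 in 1 % STIM.

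**Figure D2:**
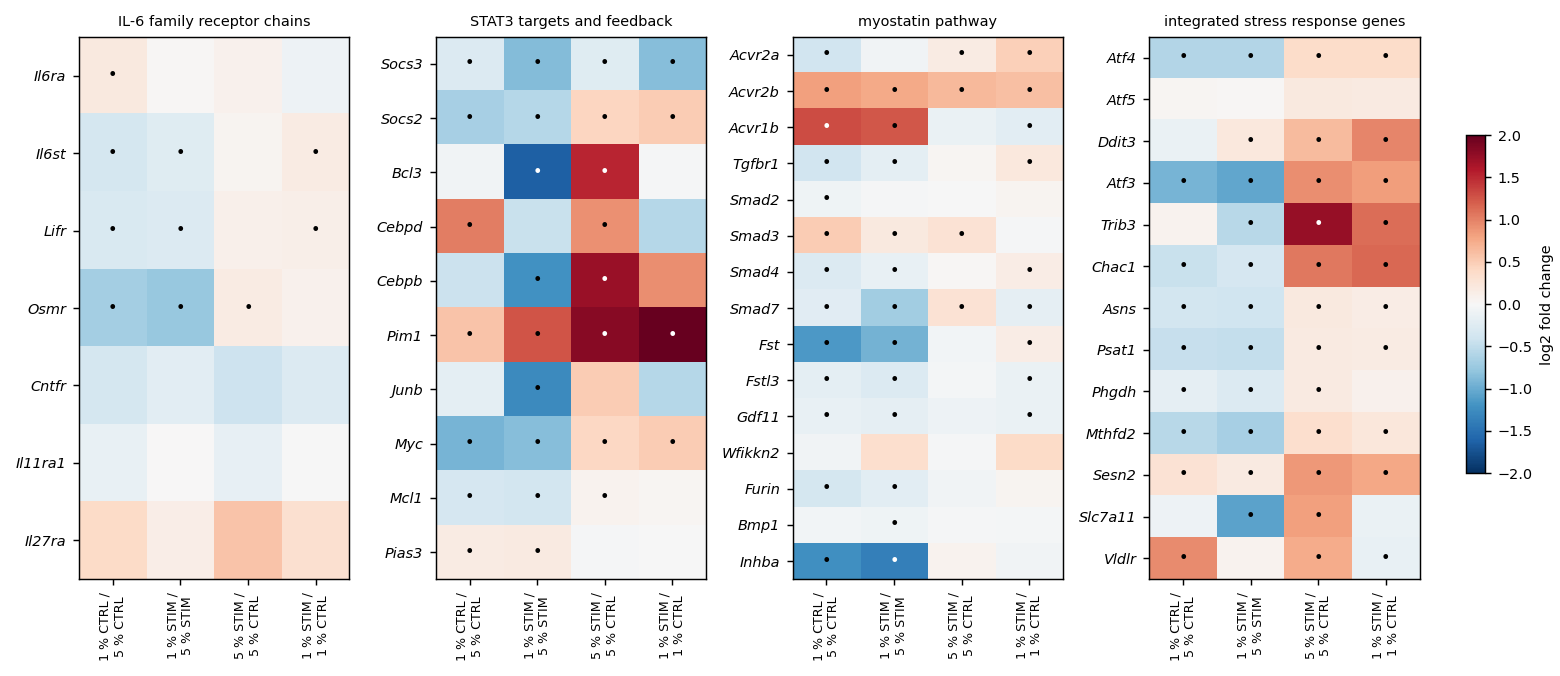
Log2 fold change (colour, from −2 in blue to 2 in red, larger values drawn at the end colour) of tested genes of 4 lists in the 4 comparisons, with a dot where the limma adjusted p was under 0.05. Of 13 integrated stress response genes, 12 are red with a dot for stimulation under 5 % O2, while Fst and Inhba in the myostatin pathway are blue in both O2 columns.

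Il15 (ENSMUSG00000031712, chr8:82331632-82403222, minus strand), a cytokine that sustains natural killer and memory T cells and is abundant in muscle, was low here. Il15 had normalized counts of 20.9, 25.9 and 36.6 (lowest, median, highest) in 5 % CTRL and 37.8, 43.5 and 54.2 in 5 % STIM. It was 21.9, 33.2 and 56.1 in 1 % CTRL and 37.2, 44.6 and 54.3 in 1 % STIM. The 5 % groups did not overlap, by a narrow margin, and the 1 % groups did.

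The Il15 mean rose with stimulation under 5 % O2 from 26.9 ± 5.82 to 45.7 ± 6.84 (SD, n = 6), by 0.76 (SE 0.19, limma adjusted p = 0.00260). Under 1 % O2 the difference was 0.41 (95 % interval 0.04 to 0.79, limma adjusted p = 0.112), and it was 0.56 (limma adjusted p = 0.0160) without 1 % CTRL replicate 1. The interaction, −0.34 (95 % interval −0.88 to 0.19, limma adjusted p = 0.444), was not called. No difference with O2 was called, at 0.31 (−0.06 to 0.69) without and −0.03 (−0.41 to 0.35) with stimulation. Leaving out 1 % CTRL replicate 3 moved the former to 0.43 (limma adjusted p = 0.0474).

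Fgf21 (ENSMUSG00000030827, chr7:45613886-45615490, minus strand) fell under 1 % O2 and was not called with stimulation. Its normalized count was 2120.0, 2254 and 2349 (lowest, median, highest) in 5 % CTRL and 1146, 1255 and 1319 in 1 % CTRL. It was 1990.5, 2464 and 2698 in 5 % STIM and 1082, 1222 and 1327 in 1 % STIM. As for Clcf1, both 5 % groups lay wholly above both 1 % groups.

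The log2 fold change of Fgf21 with 1 % O2 was −0.86 (SE 0.06, limma adjusted p = 2.36e-13) without and −0.99 (SE 0.06, limma adjusted p = 1.18e-14) with stimulation, so that 1 % STIM held 50.1 % of the mean of 5 % STIM. With stimulation it was 0.10 (95 % interval −0.02 to 0.22, limma adjusted p = 0.241) under 5 % O2 and −0.04 (−0.15 to 0.08) under 1 % O2. Without 5 % STIM replicate 1 the former was 0.15 (limma adjusted p = 0.0207). The co-receptor that FGF21 needs, Klb, was at means of 1.70 to 5.17 normalized counts and did not pass the filter. Fgfr1, its main signalling receptor, was at 4729 to 6672 and differed by −0.30 without and −0.24 with stimulation under 1 % O2, both called.

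Gdf15 (ENSMUSG00000038508, chr8:70629393-70632456, minus strand), which encodes a hormone that reduces appetite, moved with both treatments. Its normalized count was 34.3, 52.3 and 68.1 (lowest, median, highest) in 5 % CTRL and 15.7, 28.8 and 34.5 in 1 % CTRL. It was 76.4, 126 and 146 in 5 % STIM and 63.5, 73.8 and 92.6 in 1 % STIM. Stimulated libraries lay above the unstimulated ones of the same O2 without overlap, and the O2 groups overlapped.

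Stimulation raised Gdf15 by 1.21 (SE 0.18, limma adjusted p = 6.14e-06) under 5 % O2, from 50.6 ± 13.9 to 117 ± 25.6 (SD, n = 6). In 1 % O2 the rise was 1.45 (SE 0.18, limma adjusted p = 2.13e-07), from 27.9 ± 6.60 to 76.8 ± 12.3. The interaction was 0.24 (95 % interval −0.29 to 0.76, limma adjusted p = 0.612). Lower O2 went with a change of −0.83 (SE 0.18, limma adjusted p = 0.000219) without and −0.59 (SE 0.18, limma adjusted p = 0.00631) with stimulation. Its receptor Gfral, known from the hindbrain, reached a group mean of at most 0.171.

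The integrated stress response, a translational stress pathway whose factors ATF4 and CHOP are known regulators of Fgf21 and Gdf15, was read from a list of 13 genes, all tested. With stimulation under 5 % O2, 12 were higher and none lower, where 9.44 % and 12 % of all genes were. The list median was 0.63 against −0.01 over all genes. Trib3, a pseudokinase target, rose by 1.74 from a mean of 225.5 to 756, Chac1, a glutathione-degrading enzyme, by 1.05, Atf3 by 0.94, Sesn2 by 0.87, and Atf4 itself by 0.37. In 1 % O2, 9 were higher and 1 lower, where 11.5 % and 10.8 % of all genes were, with Chac1 at 1.15 and Trib3 at 1.12.

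Against the O2 level, 7 of the 13 stress response genes were lower and 2 higher without stimulation (median −0.17), and 9 were lower and 2 higher with it (median −0.40). The shares of all genes called in either direction were 59.9 % and 57.4 %. Atf4 was −0.59 in both, Atf3 −0.94 and −1.03, and Mthfd2, a mitochondrial folate enzyme, −0.56 and −0.67. Vldlr, also a HIF target, was 0.94 higher in 1 % CTRL, but its means in the stimulated groups were close. They were 1129, 2174, 1882 and 1969 in 5 % CTRL, 1 % CTRL, 5 % STIM and 1 % STIM.

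Of 8 other regulators listed for Fgf21, Gdf15 and Fndc5, 3 were higher and 3 lower in 1 % CTRL, where 59.9 % of all genes were called in either direction. Stimulation raised 1 of the 8 under 5 % O2 and 3 under 1 % O2, where 9.44 % and 11.5 % of all genes were higher. Ppara, at means of 3.09 and 2.55 in 5 % CTRL and 5 % STIM, passed the filter only through the 1 % groups (10.5 and 12.9). No test of Ppara is given, though it is among the 3 higher in 1 % CTRL. Egr1, an immediate early factor, differed by −1.39 without and −1.13 with stimulation. Ppargc1a, the coactivator PGC-1α that is known to act on Fndc5, was 0.67 higher in 1 % CTRL and 1.27 higher in 1 % STIM, with means of 23.5, 36.2, 25.8 and 64.2 in 5 % CTRL, 1 % CTRL, 5 % STIM and 1 % STIM.

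Mstn (ENSMUSG00000026100, chr1:53061640-53068079, plus strand), which encodes myostatin, was close to undetected, with 0 to 9 reads in every library. The means were 4.29 ± 2.77, 2.88 ± 2.18, 4.92 ± 3.36 and 4.36 ± 2.61 normalized counts (SD, n = 6) in 5 % CTRL, 1 % CTRL, 5 % STIM and 1 % STIM. Two-sided exact permutation tests of the 4 pairwise comparisons gave p of 0.342, 0.846, 0.874 and 0.292, with adjusted values of 0.684 to 0.874, where the smallest p these 924 splits can give is 0.00216. A difference was not detectable at this depth.

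Most other genes of the myostatin and activin pathway were well expressed. Acvr2b (means of 13.4 to 38.1) and Wfikkn2 (15.1 to 19.8) were low, and Wfikkn1 did not pass the filter. Of 15 tested, 10 were lower and 3 higher in 1 % CTRL, with a list median of −0.19, and 9 were lower and 3 higher in 1 % STIM against 5 % STIM, with a median of −0.15. Over all genes, 59.9 % and 57.4 % were called in these comparisons. Fst, which encodes the inhibitor follistatin, fell by 1.14, and Inhba, the activin A subunit, fell by 1.22, from a mean of 18941 to 8121. Acvr1b, a type I receptor, rose by 1.31 and Smad3, a signal transducer, by 0.51. Stimulation under 5 % O2 raised 4 of the 15, by 0.17 to 0.65, and lowered none, where 9.44 % and 12 % of all genes were higher and lower. The largest of these rises was that of the low Acvr2b, from a mean of 13.4 to 22.4. Under 1 % O2 stimulation raised 5 of the 15 and lowered 4, where 11.5 % and 10.8 % of all genes were higher and lower.

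Fndc5 (ENSMUSG00000001334, chr4:129136999-129144593, plus strand) fell under 1 % O2 and was not called with stimulation. Normalized counts were 863, 888 and 977 (lowest, median, highest) in 5 % CTRL, 652, 679.9 and 725 in 1 % CTRL, 836, 939 and 989 in 5 % STIM and 606, 655 and 683 in 1 % STIM, so both 5 % groups lay above both 1 % groups. The log2 fold change with 1 % O2 was −0.41 (SE 0.05, limma adjusted p = 2.16e-09) without and −0.51 (SE 0.05, limma adjusted p = 1.88e-11) with stimulation. With stimulation it was 0.02 (95 % interval −0.07 to 0.12) under 5 % O2 and −0.07 (−0.17 to 0.02) under 1 % O2. The integrin chains named as irisin receptors were both abundant. Itgav was called in no comparison, while Itgb5 was −0.44 and −0.48 under 1 % O2 and 0.16 higher with stimulation under 5 % O2.

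Metrnl (ENSMUSG00000039208, chr11:121701544-121716306, plus strand), which encodes a secreted factor that acts on adipose tissue and immune cells, was the one gene lowered by both treatments in every comparison. Its normalized count was 645, 709.5 and 788 (lowest, median, highest) in 5 % CTRL, 510.5, 566 and 606 in 1 % CTRL, 574, 602 and 636 in 5 % STIM and 454, 475 and 525 in 1 % STIM. Groups overlapped only for 1 % STIM against 1 % CTRL, where 5 of 6 stimulated libraries were below all unstimulated ones.

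The Metrnl log2 fold change was −0.33 for 1 % O2 both without (SE 0.05, limma adjusted p = 1.51e-06) and with stimulation (SE 0.05, limma adjusted p = 1.10e-06). For stimulation it was −0.21 (SE 0.05, limma adjusted p = 0.00222) under 5 % O2 and −0.22 (SE 0.05, limma adjusted p = 0.00130) under 1 % O2. The interaction was −0.01 (95 % interval −0.16 to 0.14). Both stimulation comparisons were lower for 4.16 % of all genes, and both were higher for 4.61 %, among them Il6 and Gdf15.

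**Figure D3:**
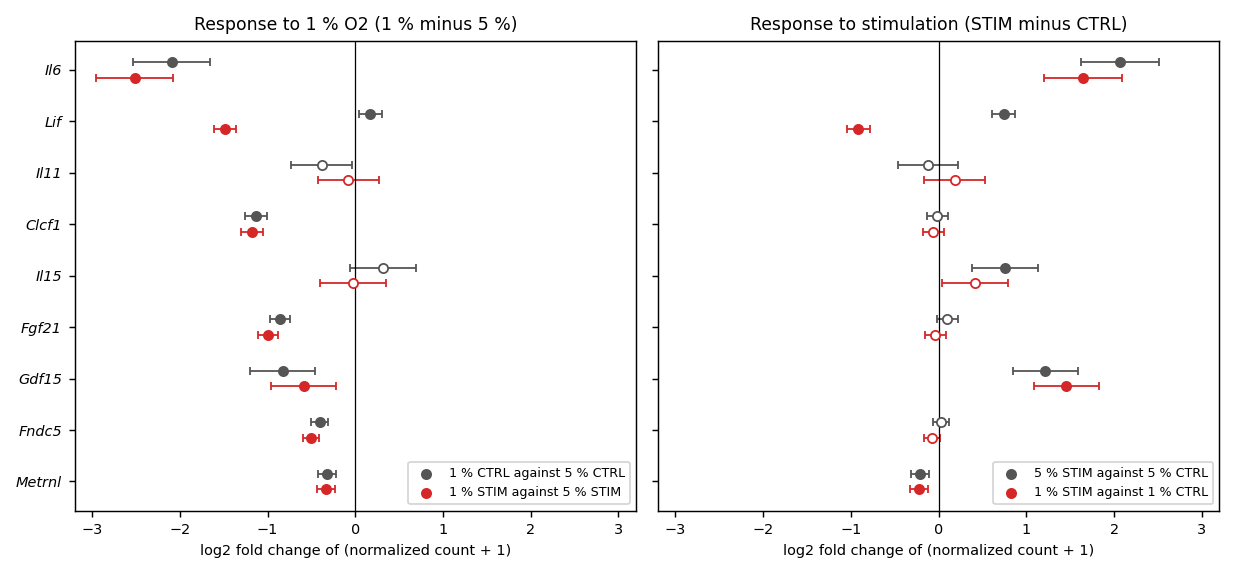
Log2 fold change of normalized count + 1 (x axis) for the 9 tested genes, with 1 % minus 5 % O2 on the left and STIM minus CTRL on the right, bars for 95 % intervals of the limma fit and filled points for an adjusted p under 0.05. Lif has its stimulation responses on opposite sides of 0, at 0.74 and −0.91, and the pair of points for Metrnl nearly coincides in each panel.

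Per kb of exon the 10 transcripts spanned a wide range of levels. In 5 % CTRL the order was Fgf21 (2366 ± 92.8 normalized counts per kb, SD, n = 6), Metrnl (444 ± 34.4), Clcf1 (411 ± 36.7), Fndc5 (329 ± 17.5), Lif (207 ± 18.8), Gdf15 (27.3 ± 7.50), Il11 (22.9 ± 3.76), Il15 (11.9 ± 2.57), Il6 (7.85 ± 1.24) and Mstn (1.59 ± 1.02). Among neighbours in this order, the libraries of Metrnl and Clcf1 overlapped, as did those of Gdf15 and Il11, and the others did not.

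The order of levels per kb changed with treatment. In 5 % STIM Clcf1, Metrnl, Lif and Fndc5 overlapped from neighbour to neighbour at 406 to 335, and Il6, at 34.1 ± 3.93, stood seventh, its range overlapping that of Il11. In 1 % CTRL Il6, at 1.59 ± 0.66, overlapped Mstn, and Clcf1 stood below Fndc5 and Lif. In 1 % STIM Lif, at 123 ± 11.3, was below Clcf1 at 180.1 ± 18.2 without overlap. Fgf21 was first in all 4 groups without overlap, at 1274 per kb or more.

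**Figure D4:**
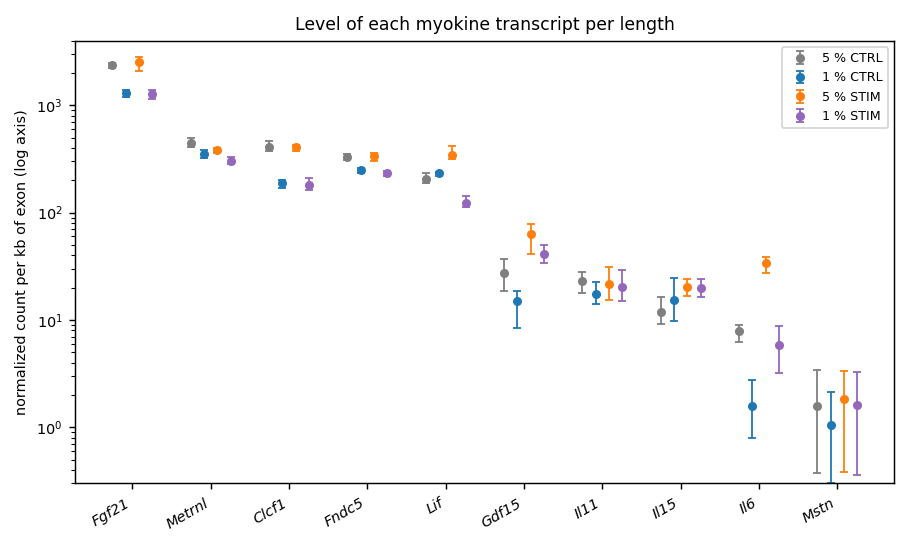
Normalized count per kb of exon (y axis, log scale) of the 10 transcripts in the 4 groups, with points for means and bars from the lowest to the highest of 6 libraries, values under 0.3 being drawn at 0.3. Fgf21 stands apart at 1274 to 2543, 4 genes lie between 123 and 444, and Il6 spans 1.59 to 34.1 across groups.

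For each called gene, the 3 genes with the closest pattern were found by the root mean square difference of log2 fold changes from 5 % CTRL in the other 3 groups, over 24 libraries. The closest matches were Cd24a, Kank2 and Gga3 for Metrnl (0.0148 to 0.0300), Pik3r1, Sft2d1 and Naaa for Fndc5 (0.0173 to 0.0224), Baiap2, Nt5e and Itga11 for Fgf21 (0.0188 to 0.0525) and Trim16, Spon2 and B3galt5 for Clcf1 (0.0227 to 0.0696). For Il15 they were Gm44597, Ubald2 and Map3k8 (0.0467 to 0.0713). Less close were Spsb1, Chac1 and Pdk4 for Gdf15 (0.190 to 0.285), and Stc2, Junb and Adnp for Lif (0.236 to 0.273).

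The 3 closest to Il6 were Usp17la, Hist1h2br and Hist1h2bg, at 0.222 to 0.553, and all 3 belong to multi-copy families whose reads may be split between copies. Candidates were genes with a mean of at least 100, or at least 10 for Il6, Il15 and Gdf15. Junb, for Lif, was −0.20, 0.51 and −0.76 against 0.17, 0.74 and −0.75, and Chac1, for Gdf15, was −0.44, 1.05 and 0.71 against −0.83, 1.21 and 0.62, in 1 % CTRL, 5 % STIM and 1 % STIM.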

How the data were processed

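Whole-transcriptome libraries were analysed from 24 cultures in 4 groups of 6, grouped by the labels. The authors prepared stranded mRNA libraries (TruSeq), checked single-end reads with FastQC 0.11.7, aligned them to GRCm38 with STAR 2.5.4b and estimated expression with RSEM 1.3.0 with default settings, under which strand is ignored. The annotation release is not given in the sources used here. As deposited by the authors, the signal is a normalized count, that is, reads per gene over the DESeq2 size factor of the library (0.955 to 1.05), on a linear scale and without length correction. A second deposited table holds the authors' own comparisons (log2 fold changes, p-values and calls) and was not used.

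Whole reads were recovered from the smallest step of each library, with all values whole within 1e-06 of a read, for use in the alternatives. Of 55487 genes, 55227 (99.5 %) were found in GENCODE M21, which gave symbols, coordinates and exon lengths, and a symbol on several rows was read from the row with the highest mean. Genes with 6 or more libraries at a normalized count of 10 or more (14541, holding at least 99.94 % of reads) entered a limma 3.58.1 fit (R 4.3.3; lmFit, contrasts.fit, eBayes with trend and robust) of log2(normalized count + 1) over the 4 groups, with Benjamini-Hochberg adjustment over all genes tested. The steps were tested on simulated data. At this depth counting error limits only the low transcripts, Il6, Il11, Il15, Gdf15 and above all Mstn.

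The genes and gene lists were chosen with earlier results of these data known. Named genes were the 10 members, up to 4 called genes per list and comparison with the largest change among genes whose higher group averaged 50 or more, receptors and feedback genes of a member, and for each called member the 3 genes closest in pattern. Cebpb, Cebpd, Csf2, Cntf, Ppara, Wfikkn1, Wfikkn2 and the genes given as at or near 0 fell outside this rule and were named after their values were seen. A gene of the lists is not reported here and stays in the counts. Alternatives were no filter, a pseudocount of 10, fitting the compared groups alone, a replicate block, an adjusted p under 0.01, rescaling of libraries to equal totals, the longest transcript as length, and edgeR 4.0.16 (quasi-likelihood, TMM), DESeq2 1.42.0 and limma voom on whole reads, and leaving out each library. RefSeq (GRCm38.p6) gave the promoter windows.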

Additional observations from a re-analysis of the deposited data

Results flagged for a closer look

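The response of Lif to stimulation differed between the O2 levels in a test of the difference itself. The interaction in the limma fit was −1.65 on the log2 scale (adjusted p = 8.79e-14), with a change of 0.74 under 5 % O2 and −0.91 under 1 % O2, and all 6 stimulated libraries lay on one side of the unstimulated ones at each O2 level. No other gene of the 9 tested had a called interaction. Of the 40 groups of libraries examined, 4 for each of the 10 genes, 0 held a library set apart from the others by Dixon's test, where chance gives about 1 in 20.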

How the results depend on the processing

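No called change of the 9 genes turned its direction under any alternative. Of 1430 values under these alternatives, 1411 kept their direction and side of the threshold. With an adjusted p under 0.01, calls over all genes went from 3115 to 1944 for 5 % STIM against 5 % CTRL and from 1645 to 830 for the interaction, since a stricter threshold calls fewer genes. With a pseudocount of 10, 2 of the 9 genes were called in the interaction, Il6 (−0.89, limma adjusted p = 0.000724) in addition to Lif. The larger pseudocount shrank the rise of Il6 from the low counts of 1 % CTRL, from 1.65 to 0.79, so its interaction grew in size. Leaving out 1 library at a time gave 8374 to 8951 called genes (6 to 9 of the 9) for 1 % CTRL against 5 % CTRL, 2664 to 3467 (5 to 6) for 5 % STIM against 5 % CTRL, 8061 to 8571 (7 throughout) for 1 % STIM against 5 % STIM, 2894 to 3747 (4 to 5) for 1 % STIM against 1 % CTRL and 1338 to 2318 (1 throughout) for the interaction.

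The call of Il11 in 1 % CTRL was the least settled. It was gained with a pseudocount of 10 (adjusted p = 0.0490), with the compared groups alone (0.0342) and without any of 9 libraries (5 % CTRL replicates 4 and 5, 1 % CTRL replicates 1 and 3, 5 % STIM replicates 3 and 6, 1 % STIM replicates 1, 4 and 5), at adjusted p of 0.0267 to 0.0496 in the limma fits. The calls of Lif, Il15 and Fgf21 that rest on single libraries stand beside their values above. The cause of these shifts was not tested. The level of Metrnl per kb in 5 % CTRL moved from 444 to 503 with the length of its longest transcript, at the same place in the order. Depth limits Mstn and, in 1 % CTRL, Il6.

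Replicate numbers are shared by the groups, but nothing in the labels ties equal numbers to a common day or dish. Over 36 pairs of equal number, deviations from the group means correlated between −0.507 and 0.388 (median −0.00752, over 10800 genes), 13 pairs were over 0.1, and 4 of 24 libraries correlated best with one of their own number. These correlations showed no general pairing by number, but they cannot tell whether equal numbers shared a day or dish. A replicate block gave 8730, 3190, 8350, 3320 and 1710 called genes in the 5 comparisons against 8708, 3115, 8346, 3245 and 1645 without it. Of the 9 genes the block called 8, 5, 7, 4 and 1 in the same order, the addition being Il11 in 1 % CTRL (adjusted p = 0.0435).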

Other observations

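Among 27 other secreted factors of muscle listed, 21 were tested. In 1 % CTRL against 5 % CTRL, 3 were higher and 10 lower, where 29.4 % and 30.5 % of all genes were, with a list median of −0.13 against 0.00 over all genes, and in 1 % STIM against 5 % STIM 3 were higher and 11 lower, where 29.0 % and 28.4 % were. Apln, which encodes the vasodilator apelin, rose by 3.50, from a mean of 136 to 1549 normalized counts, and Nampt, an NAD synthesis enzyme that is also released, rose by 1.48. Angptl4, an inhibitor of lipoprotein lipase, fell by 1.88, Fgf2 by 1.28 and the macrophage growth factor Csf1 by 1.01.

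Stimulation under 5 % O2 raised 5 of these 21 factors and lowered 1, where 9.44 % and 12 % of all genes were, and under 1 % O2 it raised 2 and lowered 2, where 11.5 % and 10.8 % were. Angptl4 rose by 0.83 and 1.80, with means of 6005 and 1629 in 5 % CTRL and 1 % CTRL and of 10662 and 5667 in 5 % STIM and 1 % STIM, and its interaction was 0.97 (limma adjusted p = 1.07e-14). Apln fell by 0.77 and 1.17. Csf2, which encodes GM-CSF, had a mean of 17.2 in 5 % STIM and at most 0.688 in the other groups, and it passed the filter only through 5 % STIM, so no test of it is given, though it is among the 5 raised under 5 % O2. Bdnf, the neurotrophin, was −0.43 and −0.52 under 1 % O2 and 0.15 higher with stimulation under 5 % O2.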
